A study of Caenorhabditis elegans with 2 samples.

Results

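The genes egl-27, let-526, lin-59 and zfh-2 encode regulators of chromatin and transcription in Caenorhabditis elegans, and each held a peak of tagged UNC-3 with a COE site inside an intron. They were chosen by measured values: each hosts a peak of the conservative list whose summit lies within 100 bp of a COE site, so the presence and strength of these peaks are described here without a test. A gene's window ran from 2000 bp upstream of its 5′ end to its 3′ end. The 4 genes belong to 14 of 19973 nuclear protein-coding genes (0.0701%) with such a peak. A conservative summit of any kind lay in the windows of 718 genes (3.59%). Since that contrast chose the genes, nothing is read from it about them.

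The study is a ChIP-seq experiment of the ENCODE project with 1 group of 2 biological replicates. The animals were whole late embryos, obtained by egg bleaching and labelled 2.5 hours, of strain RW12259 with the genotype st12259[unc-3::TY1::EGFP::3xFLAG] II, a CRISPR insertion that adds a tag with enhanced green fluorescent protein to UNC-3. The labels thus place the allele on chromosome II, whereas Ensembl annotates unc-3 on chromosome X. Both replicates carried the tag and neither had a treatment, so the data hold no comparison between conditions, and the labels do not say whether tagged UNC-3 works like the untagged protein. The description names an anti-GFP antibody where the antibody field says unc-3. A control library was not used here, read depth is unknown, and the embryos were not sorted, so a peak does not tell which cells it came from or that UNC-3 itself was bound there.

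UNC-3 belongs to the COE (Collier, Olf, EBF) family, whose members bind DNA as dimers at a palindrome and, in nematodes, specify neurons such as cholinergic motor neurons. EGL-27 resembles the vertebrate proteins MTA and RERE of deacetylase corepressor complexes and is known from cell polarity, cell migration and Hox-dependent patterning. LET-526 is an ARID-domain subunit of the SWI/SNF nucleosome remodelling complex. LIN-59 is a SET-domain protein related to Drosophila Ash1, a histone methyltransferase of the trithorax group, and ZFH-2 is a transcription factor with zinc fingers and homeodomains related to vertebrate ZFHX3.

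The COE site used here is the palindrome TCCCNNGGGA, which reads the same on both strands, and a relaxed COE pattern allowed either pyrimidine or either purine at the outer bases. Of the 4 genes, egl-27 had the COE site furthest from the peak summit, at 50.5 bp against 12.5 to 16.5 bp. The peak of egl-27 had the highest signal of the 4 genes, and its sequence is shown whole for that reason. It spans chrII:6838378-6838641 (WBcel235, plus strand, the strand of the gene), 264 bp within an intron, with the site in capitals:
egl-27 peak: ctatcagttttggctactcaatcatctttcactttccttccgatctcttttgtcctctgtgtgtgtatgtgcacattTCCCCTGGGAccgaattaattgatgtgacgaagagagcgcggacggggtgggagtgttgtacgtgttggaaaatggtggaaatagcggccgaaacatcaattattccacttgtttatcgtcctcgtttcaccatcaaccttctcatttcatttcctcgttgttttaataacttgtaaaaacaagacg
The letters of this site, on either strand, occur at 34 of the 390 exact sites of the nuclear genome. Of these 34 sites 12 lay within 100 bp of a ranked summit and 2 within 100 bp of a conservative one, at egl-27 and in the intron shared by the cholinergic genes cha-1 and unc-17, which make and load acetylcholine. The sites of both peaks are given with 10 bp on each side, plus strand, beside that of C09F5.3, the peak of highest signal among the 15 conservative peaks with a COE site:
egl-27: tgtgcacattTCCCCTGGGAccgaattaat
cha-1 and unc-17: tccccgcctgTCCCAGGGGAcaccgaaagg
C09F5.3: gcgcacaatgTCCCATGGGAcactggttga
At cha-1 and unc-17 the plus strand reads the egl-27 site on its other strand, and the C09F5.3 site differs from both in its central pair of bases.

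The values come from deposited peak lists. The conservative list held 631 peaks called from both replicates, and the ranked list of both replicates held 30297 peaks, of which the conservative ones are a reproducible subset. The ranked lists of replicate 1 and replicate 2 held 33914 and 34079 peaks. The signal value of each peak is the authors' own measure of its strength, with definition and unit not given in the sources used here. It had a median of 26.8 in the ranked list of both replicates, 16 in that of replicate 1 and 14.1 in that of replicate 2, so values of both replicates together and of 1 replicate are not set against each other. The irreproducible discovery rate (IDR) is given as its −log10, which is higher for a peak that is more reproducible. Within the ranked list, each peak also carries the signal of its matched peak in replicate 1 and in replicate 2, called matched signals below.

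Each of the 4 windows held exactly 1 conservative summit, and that summit was the one with the COE site. The signals were 145.1 at egl-27, 100.3 at let-526, 70.7 at zfh-2 and 57.0 at lin-59, which ranked 97, 204, 424 and 584 of 631 in the conservative list. The same peaks ranked 175, 314, 574 and 914 of 30297 in the ranked list. Thus egl-27 and let-526 lay above the conservative median of 81.5, and zfh-2 and lin-59 below it. The −log10 IDR fell in the same order, from 4.56 at egl-27 and 3.97 at let-526 to 2.53 at zfh-2 and 2.17 at lin-59.

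**Figure D1:**
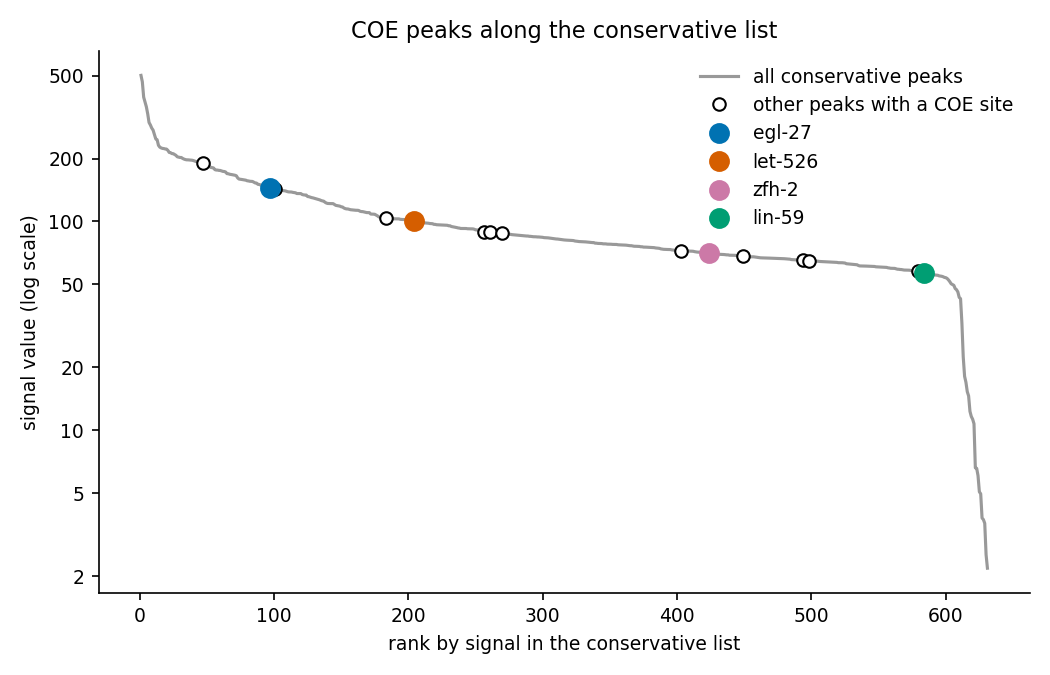
Signal value (log scale) against rank for the 631 peaks of the conservative list (grey line), with the 4 genes as coloured points and the other 11 peaks with a COE site as open points. The 4 genes are spread from rank 97 (egl-27, signal 145.1) to rank 584 (lin-59, signal 57.0), among the other peaks with a COE site.

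The lin-59 peak lay closest to the threshold of the conservative list: of the 15 conservative peaks with a COE site it had the lowest −log10 IDR, 2.17, with signal 57.0. Just outside, the ranked peak with a COE site at F08G12.11, hizr-1 and nlp-57 had a −log10 IDR of 1.98 and a signal of 57.4, and that at tpa-1 had 1.71 and 78.9. These peaks outside were thus not weaker in signal than the lin-59 peak, but their −log10 IDR was lower. The conservative list was thresholded on IDR, so that difference follows from how it was made.

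The values of the 2 replicates lay furthest apart at egl-27. There the peak had a signal of 88.5 (rank 134 of 33914) in replicate 1 and 50.2 (rank 337 of 34079) in replicate 2, and both thresholded lists held it. At let-526 the values were almost equal, 50.5 (rank 338) in replicate 1 and 50.7 (rank 334) in replicate 2. Yet its −log10 IDR was 3.13 in replicate 1 and 0.0328 in replicate 2, and only the thresholded list of replicate 1 held it.

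The other pair of genes had lower values in each replicate. At lin-59 the peak had a signal of 31.5 (rank 1026) in replicate 1 and 27.3 (rank 1203) in replicate 2, with −log10 IDR values of 0.178 and 0.167, and neither thresholded list held it. At zfh-2 the peak had a signal of 36.2 (rank 568, −log10 IDR 1.35) in replicate 2. No peak of replicate 1's ranked list overlapped it, although the ranked list of both replicates records a matched replicate 1 signal of 31.0 there, so its replicate 1 value has no rank. The peaks of lin-59 and zfh-2 are thus in the conservative list and in none of the other 3 thresholded lists, neither those of the single replicates nor the other list of both replicates, which held the peaks of egl-27 and let-526. In the other ranked list of both replicates their −log10 IDR was 0.551 at lin-59 and 0.0796 at zfh-2, against 4.99 at egl-27 and 3.85 at let-526.

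**Figure D2:**
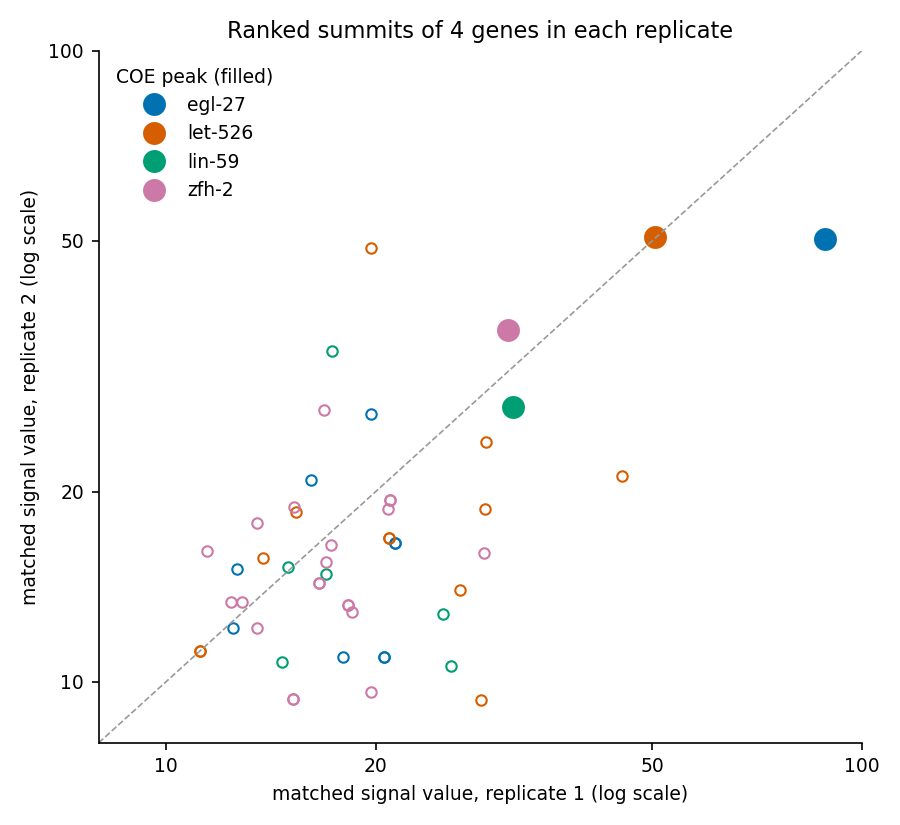
Matched signal values in replicate 1 and replicate 2 (both on log scales) for the 52 ranked summits in the windows of the 4 genes. Filled points are the COE peaks, open points the other 48 summits, and the dashed line marks equal values. The egl-27 peak lies on the replicate 1 side (88.5 against 50.2), let-526 on the line, and 1 open let-526 point stands high in replicate 2 only (19.7 against 48.7).

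The COE site lay close to the summit in all 4 peaks, within the 100 bp that the choice of genes required. The distance from the site's centre to the summit was 12.5 bp at zfh-2, 15.5 bp at lin-59, 16.5 bp at let-526 and 50.5 bp at egl-27. Along the direction of the gene, the site was upstream of the summit at egl-27 and downstream of it at the other 3 genes. At egl-27 the replicate summits were nearer to the site, at 36.5 bp in replicate 1 and 8.5 bp in replicate 2. At let-526 they were 18.5 and 22.5 bp away, and at lin-59 39.5 and 17.5 bp. At zfh-2 the replicate 2 summit was 21.5 bp away. The order of the distances among the genes thus differed between the replicates and both together.

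The 4 windows held 5 exact COE sites in all, and each lay within 100 bp of a ranked summit, 4 of them of a conservative one. Over the nuclear genome, 115 of 390 exact sites (29.5%) lay within 100 bp of a ranked summit and 15 (3.85%) within 100 bp of a conservative summit. As the genes were picked for sites at conservative peaks, 4 of the 5 were fixed by that choice, and the second site of zfh-2 is the one that it did not fix. The relaxed pattern added 1 site, also in zfh-2, 245.5 bp from the nearest ranked summit. At egl-27, let-526 and lin-59 the site in the peak was the one exact site in the window and also the one relaxed site.

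All 4 peaks with a COE site lay in introns, as did 5 of the other 11 conservative peaks with such a site, the remaining 6 being intergenic. The median signal was 85.5 for the 4 genes and 88.0 for the other 11. The GC content within 100 bp of the summit ranged from 30.8% at let-526, 34.8% at lin-59 and 45.8% at egl-27 to 54.7% at zfh-2, against 38.3% to 56.2% at the other 11 peaks. The let-526 and lin-59 peaks were thus the 2 of lowest GC content among the 15. All 4 peaks were 264 bp wide, as were the other 11, so this width is not particular to the 4 genes. The nearest annotated 5′ end of each of the 4 peaks belonged to the host gene itself.

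In egl-27 (WBGene00001194, chrII:6835008-6847908, plus strand) the peak lay between groups of alternative 5′ ends. Ensembl annotates 24 transcripts with 14 distinct 5′ ends, and the COE summit, at 6838510, was 3502 bp downstream of the first of them, 27.1% along the gene. It fell in an intron of 2101 bp (6838092 to 6840192), the second longest of 14 distinct introns, 418 bp from its 5′ splice site. This is intron 5 of 12 in 7 transcripts, intron 4 of 11 in 4 transcripts and intron 2 of 9 in 3. The 5′ end of those 3 transcripts (C04A2.3m.1, n.1 and o.1) lay 580 bp upstream of the summit, and the next 5′ end, that of C04A2.3c.2, lay 1676 bp downstream. The intron is therefore part of 14 transcripts, while the other 10 start downstream of the peak. In all, 5 of the 14 5′ ends lay within 2000 bp of the summit.

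The egl-27 peak stood out from the rest of its window, where the other 9 ranked summits all lay in introns and had signals of 4.07 to 41.3. The highest of them, 41.3 (rank 2838), lay in the same intron 647 bp downstream of the COE summit, with matched signals of 19.7 and 26.6 in replicates 1 and 2. Next came 40.3 (rank 3162) at 2787 bp downstream, 186 bp before the 5′ end of C04A2.3c.5, and 35.5 (rank 5633) at 4331 bp downstream. Further downstream the values were 24.8 (rank 17909) at 6186 bp, 23.9 (rank 19193) at 3229 bp and 4.58 (rank 29244) at 4553 bp. Upstream of the COE summit they were 32.6 (rank 8126) at 1066 bp, 29.6 (rank 11399) at 1546 bp and 4.07 (rank 29449) at 853 bp. None of these 9 summits had a COE site within 100 bp.

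In each replicate alone the egl-27 COE summit was again the highest of the window. Replicate 1 had 12 ranked summits there, from 11.4 to 88.5, and the second highest was 25.2 (rank 2672) at 2763 bp upstream of the COE summit. Replicate 2 had 8, from 10.6 to 50.2, the second being 26.6 (rank 1317) at 697 bp downstream. The runner-up was thus a different summit in each replicate.

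In let-526 (WBGene00002717, chromosome I, 5300852 to 5317392, minus strand) the peak lay downstream of every annotated 5′ end. The gene has 5 transcripts, 1 of them noncoding, and 4 distinct 5′ ends. One of these is the distal 5′ end of C01G8.9a.1 and C01G8.9e, 5953 bp upstream of the COE summit at 5311439. The other 3 lie close together, 2483 to 2491 bp upstream. The peak spans 5311307 to 5311570 and the site 5311418 to 5311427. The summit was in an intron of 2689 bp in 3 coding transcripts, numbered 4 of 13 in C01G8.9a.1 and 3 of 12 in C01G8.9a.2 and C01G8.9c.1. In C01G8.9d.1 an extra exon shortens it to an intron of 721 bp, and the summit lay 110 bp from its 5′ splice site.

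The let-526 window held several summits of high rank, all within introns between the distal 5′ end and the COE peak. Beside the COE summit, the ranked list had 69.6 (rank 589) at 1407 bp upstream of it and 66.3 (rank 653) at 1837 bp upstream, both in the same 2689 bp intron. A further summit of 49.3 (rank 1359) lay in the first intron, 4947 bp upstream of the COE summit and 1006 bp downstream of the distal 5′ end. These 3 had no COE site within 100 bp, and their −log10 IDR values were 1.25, 0.198 and 1.64.

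The replicates differed in opposite ways at the first pair of these summits. The summit of 69.6 had matched signals of 45.3 in replicate 1 and 21.2 in replicate 2. That of 66.3 had 19.7 in replicate 1 and 48.7 in replicate 2, where it ranked 358 with a −log10 IDR of 2.47 and passed the replicate's threshold. In replicate 2 it was therefore almost as high as the COE summit (50.7), which did not pass. No peak of replicate 1's ranked list overlapped the peak of 66.3, so its replicate 1 value of 19.7 has no rank. The first-intron summit was more alike in both, at 28.8 and 24.0.

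The other 9 let-526 ranked summits were lower. In introns they were 42.3 (rank 2507) at 562 bp downstream of the COE summit, 25.6 (rank 16877) at 439 bp upstream and 32 (rank 8728) at 9346 bp downstream. In coding exons, all downstream, they were 39.8 (rank 3368) at 1068 bp, 16.3 (rank 25235) at 2198 bp and 17.6 (rank 24576) at 5129 bp. The last 3 were 34.0 (rank 6870) at 5347 bp, 2.32 (rank 30172) at 6541 bp and 13.2 (rank 26335) at 6744 bp. Replicate 1 had 13 ranked summits in the window (11.6 to 50.5) and replicate 2 had 18 (9.55 to 50.7), with the COE summit highest in each.

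In lin-59 (WBGene00003040, chromosome I, 3713449 to 3721157, minus strand) the peak lay in a short intron of a gene with a single annotated transcript, T12F5.4.1. The summit, at 3718683, was 2474 bp downstream of the 5′ end, in intron 2 of 7, which spans 3718581 to 3718843. At 263 bp that intron is the fifth longest of the 7. It is about as long as the peak itself (3718551 to 3718814), whose downstream edge reached into the following exon. The conservative peaks with a COE site all had the same width, so this likeness in length is not a trait of the lin-59 peak. The site, at 3718663 to 3718672, was inside the intron. The rank of this intron by length differs from the other 3 genes, where the intron (the longest form, for let-526) was the longest or second longest of the gene.

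The lin-59 peak led its window by little. A summit 635 bp upstream of the 5′ end, 3109 bp from the COE summit, had a signal of 52.6 (rank 1095) against 57.0 (rank 914). Its matched signals were 17.3 in replicate 1 and 33.5 in replicate 2, and its −log10 IDR was 0.111. In replicate 2 alone it was the higher of the pair, at 33.5 (rank 669) against 27.3 (rank 1203) for the COE summit. In replicate 1 the COE summit was highest (31.5), followed by 26.1 (rank 2310) at another summit upstream of the gene. That replicate 1 peak of 26.1 also overlapped the peak of 52.6, whose matched replicate 1 signal is the lower value, 17.3. Which summit led the lin-59 window thus depended on the replicate.

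The remaining 5 lin-59 ranked summits were alike in strength. In introns upstream of the COE summit they were 35.0 (rank 6005) at 2132 bp, 33.3 (rank 7458) at 968 bp and 32.6 (rank 8037) at 548 bp. In coding exons downstream they were 33.5 (rank 7246) at 4312 bp and 25.8 (rank 16627) at 2988 bp. None had a COE site within 100 bp. Replicate 1 had 12 ranked summits in the window, from 14.7 to 31.5, and replicate 2 had 8, from 12.8 to 33.5.

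In zfh-2 (WBGene00022518, chromosome I, 803368 to 834765, plus strand), the longest of the 4 genes, the peak lay in the longest of 17 distinct introns, between the second and the third of 6 annotated 5′ ends. The COE summit, at 816164, was 12796 bp downstream of the first 5′ end, 3457 bp downstream of that of ZC123.3b.1 and 3213 bp upstream of that of ZC123.3c.1. The intron, 812750 to 819365, is 6616 bp long and is intron 6 of 17 in ZC123.3a.1 and intron 1 of 12 in ZC123.3b.1. The other 4 transcripts start downstream of the peak. No 5′ end of zfh-2 lay within 2000 bp of it. The peak (816032 to 816295) shared 260 of its 264 bp with ZC123.9, a noncoding RNA gene of 271 bp annotated within the intron on the same strand, which also contains the site (816172 to 816181). Summits in annotated ncRNA genes made up 127 of the 631 conservative peaks (20.1%) and 3 of the 15 with a COE site.

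The second exact COE site of zfh-2, at 813867 to 813876, lay in the same intron as the first. It was 52.5 bp from a ranked summit of signal 35.7 (rank 5512), 2240 bp upstream of the COE summit. That summit had matched signals of 15.3 in replicate 1 and 18.9 in replicate 2 and a −log10 IDR of 0.136, below that of the conservative list. In the ranked lists of the replicates, the nearest summit was 107.5 bp from the site in replicate 1 (15.3, rank 19193) and 52.5 bp in replicate 2 (18.9, rank 6037). The 2 sites of this intron thus had peaks of different strength, 70.7 and 35.7, each the first or the third highest of the window.

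Between them in strength was a summit of 44.5 (rank 2024), 128 bp downstream of the 5′ end of ZC123.3c.1, with matched signals of 28.7 in replicate 1 and 16 in replicate 2. It was the highest zfh-2 summit in replicate 1 alone (28.7, rank 1480). In replicate 2 the COE summit was highest, followed by 30.2 (rank 860) at 13966 bp downstream.

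The other 19 zfh-2 ranked summits had signals of 4.09 to 35.5 and no COE site within 100 bp. Upstream of the gene there were 28.9 (rank 12284) and 13.8 (rank 26135), at 14653 and 14451 bp upstream of the COE summit. Between the first and the second 5′ end there were 26.4 (rank 15757) at 10162 bp, 22.8 (rank 20550) at 8755 bp and 12.4 (rank 26596) at 8555 bp. In that same stretch lay 22.2 (rank 21164) at 6488 bp, 27.1 (rank 14764) at 4495 bp and 10.1 (rank 27356) at 4259 bp. No summit upstream of the COE intron thus exceeded 28.9.

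Within the COE intron the remaining zfh-2 summits were 33.0 (rank 7730) at 1604 bp upstream, 4.09 (rank 29440) at 1395 bp upstream and 25.3 (rank 17273) at 1858 bp downstream. In later introns they were 25.5 (rank 16980) at 8262 bp downstream, 30.7 (rank 10132) at 9204 bp, 35.5 (rank 5654) at 10635 bp and 25.7 (rank 16741) at 11740 bp. In coding exons they were 15.3 (rank 25619) at 12109 bp, 19.7 (rank 23426) at 12407 bp and 21.3 (rank 22088) at 16920 bp, and in the last, untranslated exon 31.6 (rank 9121) at 18572 bp. They were thus spread over the rest of the gene, and none of them exceeded 35.5. Replicate 1 had 25 ranked summits in the window (11.5 to 28.7) and replicate 2 had 22 (10.1 to 36.2).

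**Figure D3:**
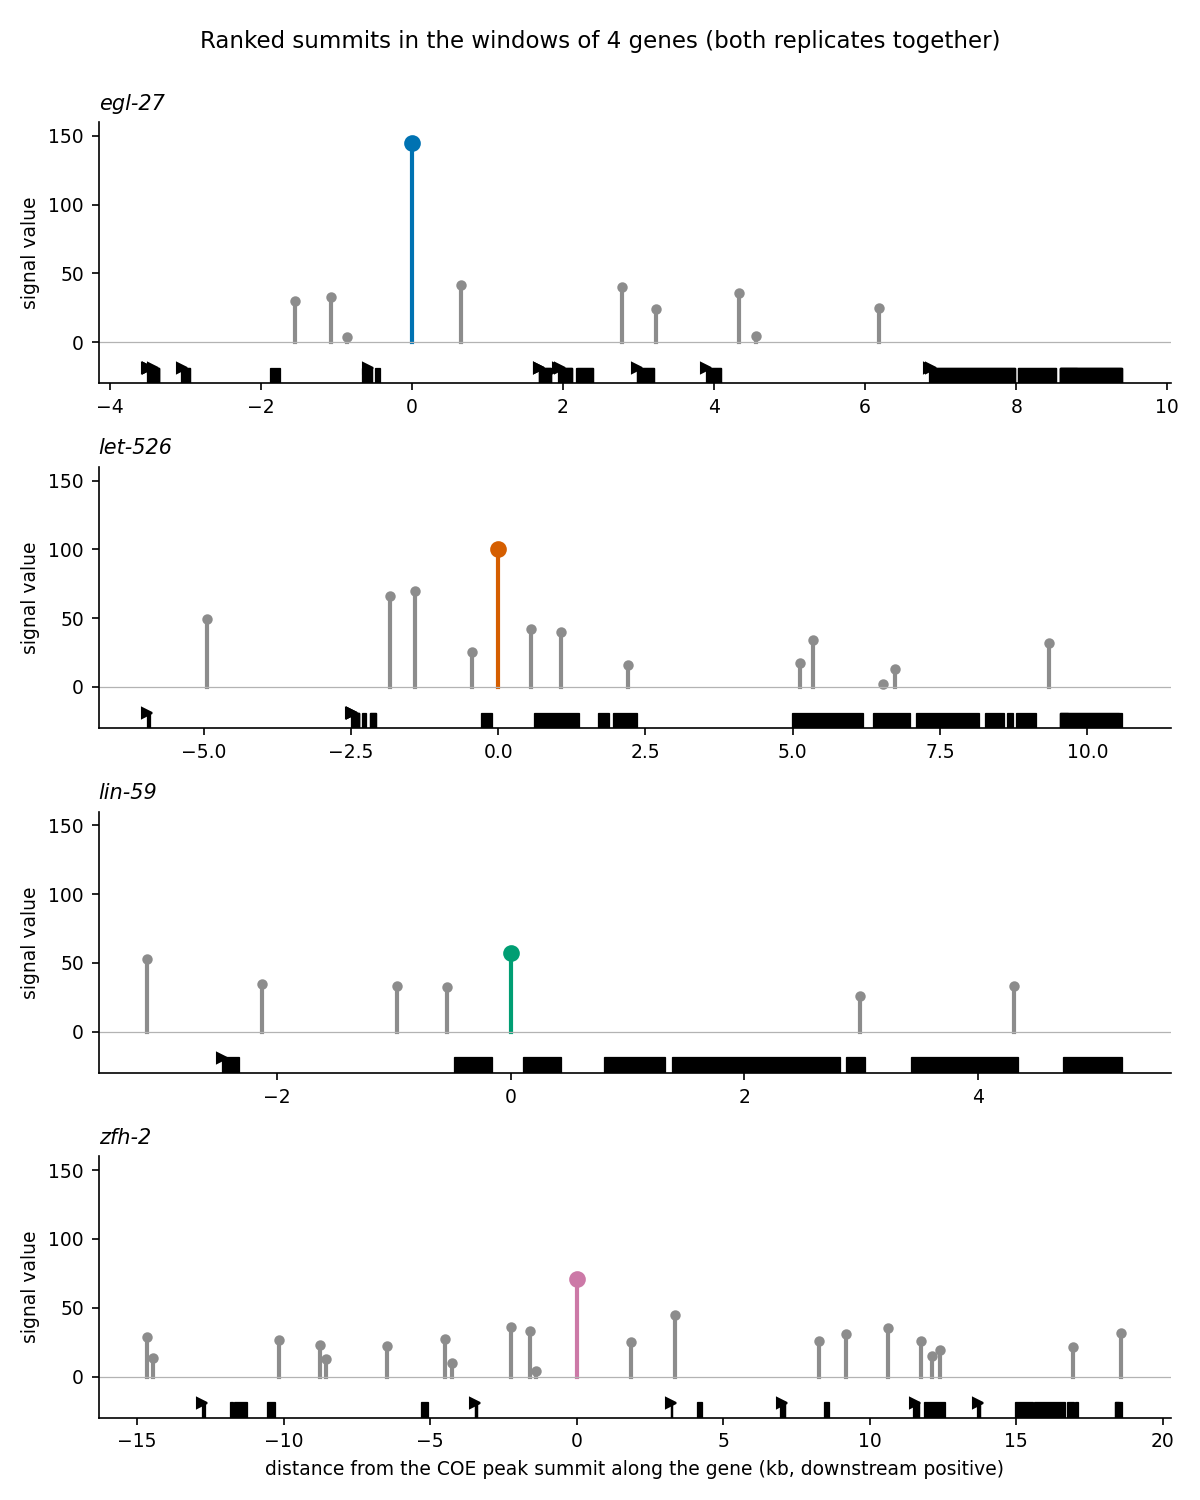
Signal values of the ranked summits (both replicates together) in each gene's window against the distance from the COE peak summit in kb, downstream positive. Coloured points are the COE peaks, grey points the other summits, black boxes exons and arrowheads annotated 5′ ends. The COE peak is the highest in each window (145.1, 100.3, 57.0 and 70.7), by a wide margin in egl-27 (next 41.3) and a narrow one in lin-59 (next 52.6).

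Over the 4 windows together, the ranked list had 52 summits, 10 in egl-27, 13 in let-526, 7 in lin-59 and 22 in zfh-2. Of these, 37 lay in introns, 11 in coding exons, 1 in an untranslated exon and 3 upstream. The 4 COE summits had a −log10 IDR of at least 2 and the other 48 reached at most 1.64. The whole list had 779 peaks (2.57%) at or above 2. The conservative list that chose the genes keeps reproducible peaks, so the high values of the 4 COE summits follow from the choice. The lower values of the other 48 were not fixed by it. This split did not hold in the other ranked list of both replicates. There the let-526 summit at 5313276 had 2.38, and the COE summits of lin-59 and zfh-2 had 0.551 and 0.0796. Ranked peaks of both replicates overlapped 28 of the 52, and 3 were overlapped by none. The shares of the whole ranked list by location and by overlap are not given here. These counts are therefore not read as traits of the 4 genes. Among the 52 there were 8 pairs of neighbouring summits that shared their matched peaks, so their replicate values are not separate measurements.

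All 4 windows held more ranked summits per length than most genes. The density was 0.671 per kb in egl-27, 0.701 in let-526, 0.721 in lin-59 and 0.659 in zfh-2, higher than in 88.0%, 89.4%, 90.2% and 87.4% of nuclear protein-coding genes, whose median was 0.255. Genes with windows of like length held medians of 5, 6, 3 and 11 ranked summits, with upper quartiles of 7, 8, 4 and 15, against the 10, 13, 7 and 22 of the 4 genes. A conservative summit was found in 7.92%, 8.56%, 6.47% and 13.7% of those genes, higher than the 3.59% over genes of every length. Each of the 4 counts includes the peak for which the gene was chosen.

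None of the peaks lay next to a tRNA or snoRNA gene. The nearest tRNA gene was 14694 bp away from the egl-27 summit, 531644 bp from let-526, 79759 bp from lin-59 and 61401 bp from zfh-2. The nearest snoRNA gene was C04A2.16, 4730 bp from the egl-27 summit, and for the other 3 genes it was at least 90175 bp away.

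Each gene was set beside other genes of its complex or family, against the 3.59% of all genes that had a conservative summit. The windows of these lists had medians of 6496 to 6680 bp, longer than the 4027 bp of all genes. The chosen gene is left out of the shares below, because it was picked for its peak. Intervals are exact Clopper-Pearson 95% intervals and cover counting error only.

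Among the other 12 SWI/SNF genes beside let-526, 2 (16.7%, 2.09 to 48.4) had a conservative summit. These were swsn-3, a subunit of the complex, with 78.7 upstream of the gene, and pbrm-1, the polybromo subunit, with 67.9 in an intron. With let-526 included, the count was 3, against 1 when either replicate was used alone. Among the other 9 genes of the NuRD and MEC complexes and relatives of MTA and RERE beside egl-27, 0 had a conservative summit. The 95% interval of that share reached up to 33.6%. With egl-27 included, the count was 1, and it was 3 in the other thresholded list and in that of replicate 2 alone. There the histone chaperone genes lin-53 and rba-1 share 1 peak, which had a signal of 58.7 (rank 843) in the ranked list. In that list the MTA gene lin-40 had a highest signal of 57.3 (rank 902) and the histone deacetylase gene hda-1 of 47.1 (rank 1613).

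Among the other 30 genes for histone lysine methylation and demethylation beside lin-59, 3 (10%, 2.11 to 26.5) had a conservative summit. These were mrg-1 with 80.1, set-25, an H3K9 methyltransferase gene, with 71.3, and ash-2, a core subunit of H3K4 methyltransferase complexes, with 60.9. The mrg-1 peak had its nearest 5′ end at spcs-2. With lin-59 included, the count was 4, and it was 2 in the list of replicate 2 alone and 1 in that of replicate 1 alone. Among the other 39 homeobox genes without a ceh name beside zfh-2, 0 had a conservative summit, with a 95% interval of up to 9.025%. An exact COE site anywhere in the window was found in 1, 1, 1 and 2 genes of the 4 lists, the chosen genes included. Over all genes such a site was found in 351 of 19973 (1.76%). The chosen genes were picked for such a site, so only 1 gene, in the homeobox list, was not fixed by that choice.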

How the data were processed

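Peak lists of tagged UNC-3 from 2 replicates and from both together were used as the authors deposited them, on ce11 per the labels, with fragments of 200 to 800 bp. The signal value, the score and the −log10 IDR are the authors' deposited values. The aligner, the peak caller and the definition of the signal were not given in the sources used here. Matched peak columns of the ranked list were assigned to replicates by coordinates: 70.6% and 67.7% were found in the ranked list of replicates 1 and 2, and 0 in the other one.

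The 4 genes and the gene lists were chosen with earlier results of these data known. The named genes are the 4 genes, up to 4 further members of each list by signal, the gene, tRNA and snoRNA nearest to each peak, and hosts of other COE peaks. The genes lin-40, hda-1, lin-53 and rba-1 were named after their values were seen. Chromosomes, genes and transcripts came from WBcel235 and Ensembl release 115. Genes of like length had windows within 0.5 log2 of the gene's own. Coordinates are 1-based, and ranks follow signal. Medians, quartiles and Clopper-Pearson intervals used numpy 2.4.6 and scipy 1.17.1 under Python 3.11.15, and figures matplotlib 3.10.9. The search for COE sites and the lookup of summits near them were tested on simulated data, and the other steps were not. No test between groups was made.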

Additional observations from a re-analysis of the deposited data

Results flagged for a closer look

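One peak of let-526 lies outside the conservative list that chose the gene but passed in 2 other deposited lists. In the other thresholded list of both replicates it had a signal of 66.3 (rank 473 of 622), with its summit at 5313276 in an intron, 1837 bp from the COE summit. In the thresholded list of replicate 2 it had a signal of 48.7 (rank 239 of 384). Its matched signal in replicate 1 was 19.7, but no peak of replicate 1's ranked list overlapped it. No exact or relaxed COE site lay within 100 bp of its summit. There is no control library here against which to set it.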

How the results depend on the processing

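Of 54 alternatives over 9 counts, 36 gave a count within 1.5 times that reported. Genes with a conservative COE peak (4) were 2 in the other thresholded list, 2 among peaks above the list's median signal and 1 to 2 when a single replicate's list was used. Conservative summits in the windows (4) were 2 among peaks above the median signal and 2 in either replicate's list. COE sites near a ranked summit (5) were 3 at 50 bp and 3 to 5 with 1 replicate. The limit of 50 bp leaves out the egl-27 site at 50.5 bp and the second zfh-2 site at 52.5 bp, the one not fixed by the choice of genes. With 1 replicate's list, SWI/SNF genes with a summit (3) were 1 in either case, NuRD genes (1) 1 to 3, histone methylation genes (4) 1 to 2, and homeobox genes (1) 0 in either case. In the other thresholded list, NuRD genes were 3, where lin-53 and rba-1 share 1 peak, and homeobox genes 0. No paired analysis was possible because there is 1 group and no test. Depth is unknown, there is no control library here, and 2 replicates limit what the spread between them shows. The cause of these differences was not tested.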
